A study of Homo sapiens with 82 samples.

Results

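The genes described here are 38 members of the nuclear receptor superfamily, taken from the 51838 genes of the RNA-seq count tables by their symbols. The LXR, PPAR and RXR genes are not among them. It holds thyroid hormone and retinoic acid receptors, the REV-ERB and ROR clock receptors, the bile acid, vitamin D and xenobiotic receptors, HNF4, steroid and estrogen receptors, the NR4A group and the orphan receptors.

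The cells were HT29, an established colorectal adenocarcinoma line, kept before treatment in phenol-red-free medium with charcoal/dextran-treated serum, which holds few hormones. They received the vehicle DMSO alone or a drug at 10 µM (GW3965, T0901317 or rosiglitazone) for 24 h or 48 h, which makes 8 groups with 4 libraries each (32 in all). GW3965 and T0901317 are synthetic LXR agonists and rosiglitazone is a PPARG agonist. The labels do not say whether replicates came from separate cultures, so p-values measure only the spread between these libraries.

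Nuclear receptors are transcription factors that bind DNA at short hexamer sequences. Many of them are switched by a small lipid-soluble ligand, such as a hormone, a bile acid or a vitamin, and others are called orphans because no ligand is established for them. Several heterodimerise with RXR, the partner that the LXRs and PPARG also use, and some, such as NR0B2, act by binding other receptors.

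Total counts per library ranged from 21044798 to 51332656, with a median of 38112279.5. All 11 colorectal epithelium markers examined, EPCAM, CDX2 and VIL1 among them, were at 1 CPM (counts per 1000000 reads) or more, and their summed level was 15600 to 23600 CPM per library. Of 8 markers of other cell types in the table, 2 reached 1 CPM, COL1A1 and APOH, and the 8 summed to 15.1 to 26.2 CPM. The leukocyte markers PTPRC and CD3E had group means of at most 0.0384 and 0.0388 CPM. At 48 h this sum was 21.7 to 24 CPM with GW3965 and 24.4 to 26.2 CPM with T0901317 against 15.6 to 18 CPM in DMSO, and APOH rose with T0901317 (11.6 to 18.2 CPM). The part of this in the results below was not tested, and ALB, the other hepatocyte marker, had group means of at most 0.0162 CPM. Replicate 1 of GW3965 at 24 h was below the other 3 libraries of its group in several members, with NR2F6 at 132 CPM against 203 to 240 CPM, HNF4A at 113 against 155 to 178 CPM, NR4A1 at 58.7 against 90.7 to 108 CPM and RARA at 49.7 against 64.3 to 67.7 CPM. Without it GW3965 again called 0 members at 24 h, no member value called with it was lost, and RARG (GW3965) and NR4A1 (T0901317) were among the calls gained in the differences between the 48 h and 24 h responses.

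A member was counted as expressed if its mean reached 1 CPM in at least 1 of the 8 groups, and 25 of the 38 did. Levels of different genes are not ranked here because the tables give no gene lengths, but each gene can be compared with itself across groups. The plot of group means shows that the 25 expressed genes spanned from NR1I3, RORA and NR1I2, whose highest group means were 1.19, 1.27 and 1.14 CPM, to NR2F6, with a highest group mean of 334 CPM.

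**Figure D1:**
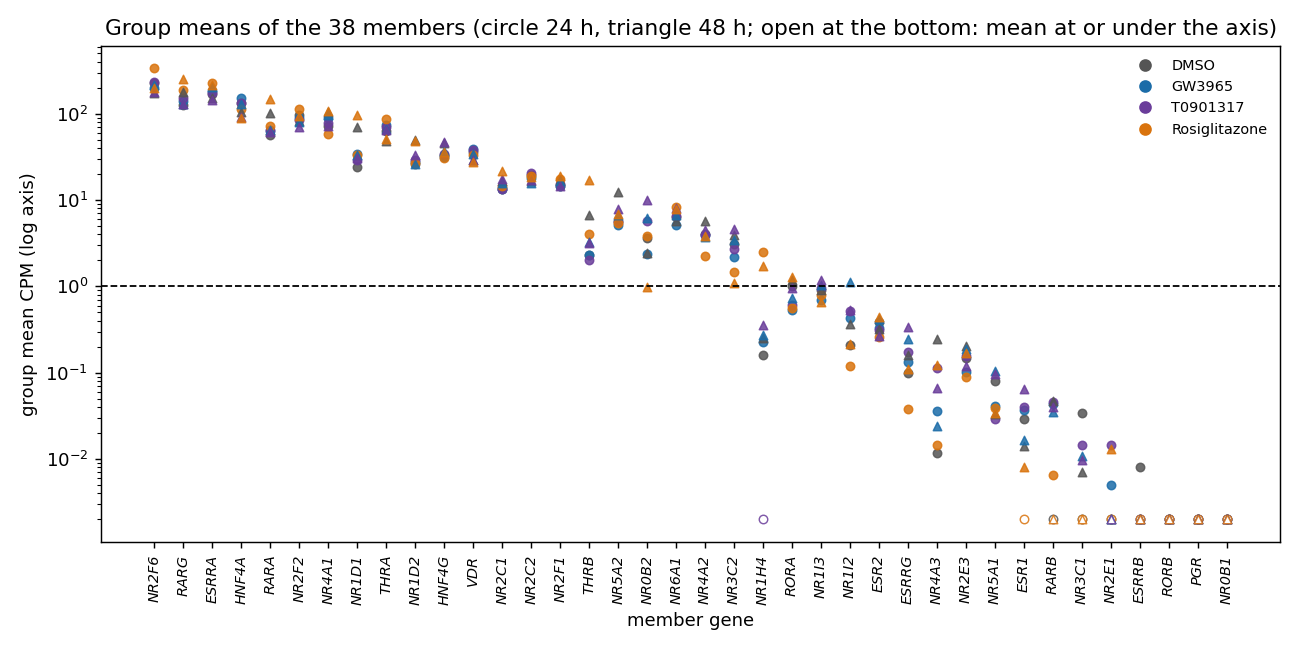
Group mean CPM on a log axis (vertical) of the 38 member genes (horizontal), ordered by their highest group mean, with circles for 24 h, triangles for 48 h, and colours for DMSO, GW3965, T0901317 and rosiglitazone. The dashed line is 1 CPM. The 25 genes to the left reach it in at least 1 group, open symbols at the bottom are means at or under the axis, and heights of different genes are not corrected for gene length.

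The 13 genes that did not reach 1 CPM were RARB, RORB, NR2E1, NR2E3, ESR1, ESR2, ESRRB, ESRRG, NR3C1, PGR, NR4A3, NR5A1 and NR0B1. RORB, PGR (the progesterone receptor) and NR0B1 had 0 reads among the 1234759716 reads of all libraries, which allows a level of up to 0.00243 CPM (3 reads over all libraries, counting error only). NR3C1, the glucocorticoid receptor, had 12 reads in 6 libraries, and ESRRB had 1 read. ESR1, the estrogen receptor alpha gene, had 34 reads in 15 libraries, whereas ESR2 (estrogen receptor beta) had 420 reads, present in all 32, and a highest group mean of 0.441 CPM. NR4A3 peaked at 12 reads in 1 library and is described with its relatives. The most reads in any 1 library were 5 for RARB, 2 for NR2E1, 12 for NR2E3, 34 for ESRRG and 12 for NR5A1.

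The comparisons asked how each drug changed these genes against DMSO at the same time. A gene was called when edgeR's quasi-likelihood test gave an adjusted p below 0.01 over all genes tested and the change was at least 1.5-fold, and "rose" and "fell" are used only of called changes. Of the 25 expressed members, 10 were called in at least 1 of the 6 drug comparisons, 4 of them at 24 h and all 10 at 48 h, and 15 in none. The share of all genes called in at least 1 of the 6 was not computed, so these counts only list the genes described below. Shares over all genes are given for each comparison. NR1I2 reached 1 CPM only with GW3965 at 48 h and NR1H4 only with rosiglitazone, the groups in which they were called higher, so for these genes being counted as expressed is not independent of the change. At each time the 3 drugs were set against the same 4 DMSO libraries, so their values are given side by side and no agreement between them is counted.

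At 24 h, 26 members were tested. GW3965 called 0 of them, against 1.34% of all genes tested, although 9 had an unadjusted p under 0.05 and 1 an adjusted p under 0.01 with less than a 1.5-fold change. DESeq2 also called 0. T0901317 called 1, which was lower (0.721% of all genes were called and 0.0321% were called lower). This was NR1H4, which was tested at 24 h only through its rosiglitazone reads. Rosiglitazone called 4, 2 higher and 2 lower, where 4.94% of all genes were called (1.81% higher and 3.13% lower).

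At 48 h, 27 members were tested and more of them were called, as was the case over all genes. GW3965 called 8, 2 higher and 6 lower, which is 29.6% of the members against 16.1% of all genes (8.27% higher and 7.78% lower). T0901317 called 6, 1 higher and 5 lower, 22.2% against 14.3% (6.99% higher and 7.28% lower). Rosiglitazone called 6, 2 higher and 4 lower, 22.2% against 12.2% (4.79% higher and 7.4% lower). These are small numbers of genes, and the shares are given as counts without a test of the list.

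**Figure D2:**
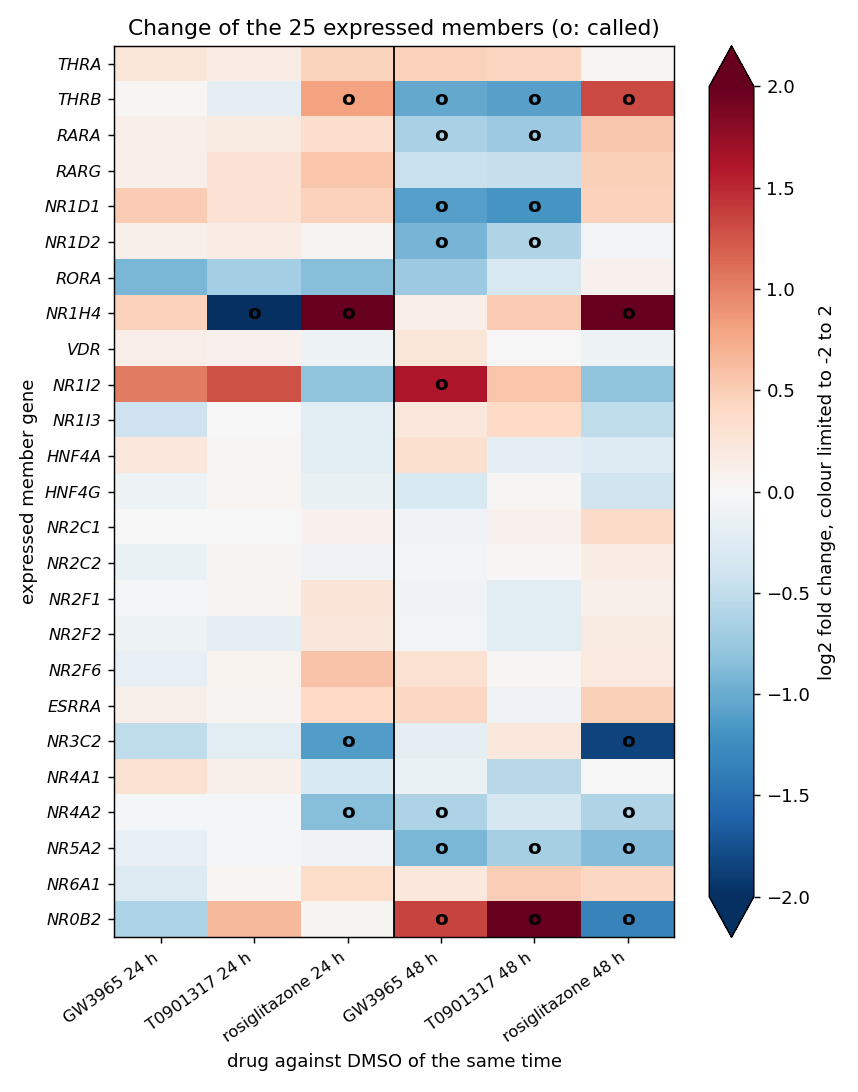
Log2 fold change against DMSO of the same time (colour, limited to -2 to 2) of the 25 expressed member genes (rows) for the 3 drugs at 24 h and 48 h (columns), with a ring where the change was called. Rings gather in the 48 h columns, where NR1D1 and NR1D2 are blue with both LXR agonists and THRB is blue with both and red with rosiglitazone.

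NR1D1 and NR1D2 encode REV-ERB alpha and beta, heme-binding repressors that form the second loop of the circadian clock by shutting off ARNTL. THRA overlaps the end of NR1D1 on the opposite strand, and since the counting strand is not given in the sources used here, reads of that overlap cannot be told apart.

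NR1D1 in DMSO at 24 h was at 25.5, 25.9, 20.8 and 23.5 CPM in replicates 1 to 4, and at 48 h at 77.1, 66.9, 64.6 and 72.5 CPM. With GW3965 it was at 29.2, 36.2, 37.2 and 33.8 CPM at 24 h and at 32.8, 32.6, 34.2 and 32.1 CPM at 48 h. With T0901317 the values were 29.8, 28.7, 32.7 and 25.6 CPM at 24 h and 32.8, 31.8, 27.7 and 32 CPM at 48 h. Thus the 48 h LXR agonist libraries lay at the level of the 24 h ones, under every DMSO library of 48 h, while rosiglitazone gave 34.1, 30.5, 34.5 and 32.4 CPM at 24 h and 99.9, 105, 89.1 and 97.3 CPM at 48 h. Relative to DMSO of 48 h, NR1D1 fell with GW3965 (log2 fold change -1.10, SE 0.0693, n = 4 against 4, adjusted p 3.27e-10) and with T0901317 (-1.18, SE 0.0694, adjusted p 1.49e-10). With rosiglitazone it was 0.46 higher (adjusted p 2.73e-05), under 1.5-fold.

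NR1D2 was at 24.6 to 28.0 CPM in the DMSO libraries of 24 h and at 48.3, 51.0, 52.0 and 49.0 CPM in those of 48 h. At 48 h GW3965 gave 25.6, 25.6, 27.6 and 26.2 CPM, T0901317 28.6, 32.1, 31.1 and 39.6 CPM, and rosiglitazone 39.5, 48.5, 53.0 and 53.9 CPM. Neither LXR agonist group overlapped DMSO, and the rosiglitazone group did. NR1D2 fell with GW3965 at 48 h (log2 fold change -0.94, SE 0.0963, adjusted p 1.89e-07) and with T0901317 (-0.61, SE 0.0952, adjusted p 3.6e-05), the latter at 1.52-fold and close to the fold threshold. Without replicate 1 of T0901317 the change was -0.55 and no longer reached it.

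DMSO itself differed between the times. NR1D1 rose 2.94-fold and NR1D2 1.92-fold from 24 h to 48 h in DMSO (adjusted p 9.98e-17 and 4.73e-11), where 20.4% of all genes were called (10.9% higher and 9.59% lower). Time and whatever else separates the 2 tables cannot be told apart in this comparison. The change of the drug effect between the times, which was tested directly as an interaction, was called for NR1D1 with GW3965 (-1.61, SE 0.113, adjusted p 1.42e-12; 12.9% of all genes called) and with T0901317 (-1.47, SE 0.114, adjusted p 1.18e-11; 10.5%).

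The promoters of both REV-ERB genes are shown as examples from the genes that fell with both LXR agonists at 48 h. THRB, RARA and NR5A2 also fell with both, and their windows are not printed. The sequences are the 250 bases before the start site in RefSeq GRCh38.p14, 5′ to 3′ on the gene's strand. Capitals mark letters of a searched motif (E-box CACGTG, D-box TTATGNAA, receptor half-site AGGTCA, each on either strand), and a window without capitals held none of the motifs searched.
NR1D1, 17:40100590-40100839, minus strand: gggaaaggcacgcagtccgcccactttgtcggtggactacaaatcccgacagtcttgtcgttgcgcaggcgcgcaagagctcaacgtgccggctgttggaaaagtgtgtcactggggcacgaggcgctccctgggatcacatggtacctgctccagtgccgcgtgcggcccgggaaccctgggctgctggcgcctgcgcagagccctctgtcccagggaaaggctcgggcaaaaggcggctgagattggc
NR1D2, the second of its 2 start sites, 3:23945871-23946120, plus strand: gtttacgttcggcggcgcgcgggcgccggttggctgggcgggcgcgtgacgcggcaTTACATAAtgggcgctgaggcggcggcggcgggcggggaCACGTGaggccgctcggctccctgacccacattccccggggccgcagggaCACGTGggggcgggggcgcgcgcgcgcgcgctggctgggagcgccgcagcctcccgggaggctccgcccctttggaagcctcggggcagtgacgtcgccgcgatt

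This NR1D2 window, chosen for its matches, holds a pair of E-boxes and 1 D-box, and the window of the other NR1D2 start site (3:23945036-23945335) holds no match to any motif searched. By comparison, 7.26% of the 35116 promoter windows of 300 bases in the table hold an E-box and 3.3% a D-box. The NR1D1 window holds none of them, which says only that these letters are not in this window. An E-box is the sequence that CLOCK and ARNTL bind. In all, E-boxes were in 2 of 17 windows belonging to 8 of the 10 called genes, the other being a RARA window. For NR4A2 and NR0B2 the table had no window. Whether any of these sites has a part in the changes was not tested.

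RORA, which activates at the same response elements that the REV-ERBs repress, was near 1 CPM, with group means of 0.527 to 1.27 CPM. Its largest drug difference was GW3965 at 24 h, -0.91 on the log2 scale with a 95% interval of -1.74 to -0.09 (adjusted p 0.249). Of the 15 clock partner genes listed for these receptors, all were tested. GW3965 called 6 at 48 h (1 higher, 5 lower) and T0901317 7 (1 higher, 6 lower), which is 40% and 46.7% against 16.1% and 14.3% of all genes, with medians of -0.31 and -0.07 against 0 and 0.01 over all genes. Rosiglitazone called 3 at either time, 2 higher and 1 lower (20%, against 4.94% of all genes at 24 h and 12.2% at 48 h). At 24 h GW3965 and T0901317 called 0 each by edgeR, with 6 and 4 at an unadjusted p under 0.05. DBP, a transcription factor that binds D-boxes, rose most among the called clock genes, with T0901317 at 48 h (from 3 to 10.4 CPM), and HLF, its relative, fell with GW3965 at 48 h (0.391 to 0.0887 CPM, log2 -2.05).

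Among the thyroid hormone and retinoic acid receptors, THRB (thyroid hormone receptor beta) varied most, with an 8.53-fold range of group means. In DMSO it was at 1.77, 3.13, 2.42 and 1.82 CPM at 24 h and at 6.41, 6.58, 6.22 and 7.68 CPM at 48 h. With rosiglitazone it was at 3.55, 3.84, 4.87 and 3.78 CPM at 24 h and at 12.4, 15.1, 23.6 and 17.2 CPM at 48 h, above every DMSO library of the same time. At 48 h it was at 3.01, 3.36, 3.09 and 3.76 CPM with GW3965 and at 2.95, 3.14, 3.62 and 2.95 CPM with T0901317, below every DMSO library.

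THRB thus rose with rosiglitazone by 0.81 at 24 h (SE 0.182, adjusted p 0.00309) and 1.33 at 48 h (SE 0.148, adjusted p 9.16e-07), and it fell at 48 h with GW3965 (-1.03, SE 0.159, adjusted p 2.67e-05) and T0901317 (-1.09, SE 0.159, adjusted p 1.6e-05). The 24 h call was lost without DMSO replicate 1 or 4 or rosiglitazone replicate 3 (adjusted p 0.0136 to 0.0141). In DMSO it rose 2.96-fold with time. The interactions were -1.05 for GW3965 (adjusted p 0.00146) and -0.90 for T0901317 (adjusted p 0.00898), the latter lost when any of 19 libraries was left out and with library size scaling (adjusted p up to 0.0341).

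THRA, whose reads may include NR1D1's, was called in no drug comparison, with group means of 48.7 to 85.8 CPM. Its largest difference was GW3965 at 48 h, 0.46 with a 95% interval of 0.30 to 0.61, whereas THRB and NR1D1 fell there. Of 8 thyroid hormone partner genes, 2 were tested at 24 h and 4 at 48 h, with 1, 0 and 1 called at 24 h and 2, 0 and 1 at 48 h with GW3965, T0901317 and rosiglitazone. Over all genes the shares called were 1.34%, 0.721% and 4.94% at 24 h and 16.1%, 14.3% and 12.2% at 48 h. The genes tested are too few to compare with these shares. HR, a corepressor that binds these receptors, rose with rosiglitazone at 24 h from 5.36 to 46.6 CPM. KLF9, a thyroid and glucocorticoid target, fell with GW3965 at 48 h from 1.04 to 0.283 CPM, but was at 1.17 CPM with T0901317 and not called.

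RARA (retinoic acid receptor alpha) in DMSO was at 60.1, 54.8, 52.0 and 60.1 CPM at 24 h and at 109, 99.1, 93.9 and 101 CPM at 48 h. At 48 h the LXR agonist libraries gave 67.2, 63.1, 66.4 and 62.8 CPM (GW3965) and 69.8, 55.6, 52.6 and 65.3 CPM (T0901317), all below DMSO. Rosiglitazone libraries, at 141 to 165 CPM, were all above. RARA fell with GW3965 (-0.64, SE 0.0804, adjusted p 2.3e-06) and T0901317 (-0.73, SE 0.0805, adjusted p 5.42e-07), and was 0.55 higher with rosiglitazone, which is 1.46-fold and not called, but reached 0.59 when DMSO replicate 1 was left out.

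RARG showed smaller differences in the same directions at 48 h. The group mean was 176 CPM in DMSO, against 130 CPM for GW3965, 128 CPM for T0901317 and 250 CPM for rosiglitazone, and none of these reached 1.5-fold although all 3 had adjusted p values under 0.01. The RARG interaction of T0901317 was called (-0.74, SE 0.0905, adjusted p 1.46e-07). Of 15 retinoid genes, 10 were tested in each time point, and 5, 0 and 5 of them were called at 24 h with GW3965, T0901317 and rosiglitazone, and 6 with each drug at 48 h. Over all genes the shares called were 1.34%, 0.721% and 4.94% at 24 h and 16.1%, 14.3% and 12.2% at 48 h. CYP26B1, which degrades retinoic acid, rose with rosiglitazone at 48 h (0.203 to 1.97 CPM, log2 3.25), and RARRES3, a retinoid-responsive gene, fell with it (5.37 to 1.28 CPM, log2 -2.09).

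NR1H4 encodes FXR, the bile acid receptor, and NR0B2 encodes SHP, an atypical receptor without a DNA-binding domain that FXR is known to induce. NR1H4 had 6, 4, 5 and 9 reads in DMSO and 8, 11, 13 and 6 with GW3965 at 24 h, and 0 reads in all 4 T0901317 libraries. With rosiglitazone it had 86, 94, 101 and 62 reads at 24 h and 70, 54, 49 and 63 at 48 h. At 48 h DMSO libraries had 12, 10, 8 and 6 reads, GW3965 17, 9, 7 and 17, and T0901317 22, 8, 23 and 15. The rosiglitazone libraries had more reads than any DMSO, GW3965 or T0901317 library, and the T0901317 zeros of 24 h were not seen at 48 h.

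NR1H4 rose with rosiglitazone from 0.162 to 2.51 CPM at 24 h (log2 3.93, SE 0.322, adjusted p 1.71e-07) and from 0.253 to 1.74 CPM at 48 h (2.76, SE 0.311, adjusted p 1.01e-06). With T0901317 at 24 h the fall against DMSO was called by edgeR (adjusted p 0.0039). The DMSO level was 6.79 times a floor of 3 reads over the T0901317 group, and the GW3965 level 9.33 times. These ratios take the DMSO and GW3965 reads as exact, so they are not lower bounds. NR1H4 did not pass the count filter in a fit of T0901317 and DMSO alone, so its tests at 24 h rested on its rosiglitazone reads. At the DMSO rate 20.4 reads would have been counted in these T0901317 libraries. The call against DMSO was lost without DMSO replicate 4 or T0901317 replicate 1, 3 or 4 (adjusted p 0.011 to 0.0157). Its promoter is shown because it has 1 start site in the RefSeq table, with the receptor half-site in capitals.
NR1H4, 12:100503110-100503359, plus strand: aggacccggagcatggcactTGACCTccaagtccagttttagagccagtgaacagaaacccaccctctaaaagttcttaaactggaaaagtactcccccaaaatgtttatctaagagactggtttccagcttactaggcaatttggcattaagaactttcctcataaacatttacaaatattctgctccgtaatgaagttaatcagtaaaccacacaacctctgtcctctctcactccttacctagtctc

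NR1H4's window holds 1 receptor half-site, which 13.8% of all windows hold. Its direct repeats DR4 and DR1 were found in no window of the 8 genes, and in 0.0199% and 0.0228% of all windows.

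NR0B2 had 3.58, 3.51, 3.92 and 3.70 CPM in DMSO at 24 h and 2.44, 2.42, 2.03 and 2.80 CPM at 48 h. At 48 h GW3965 gave 6.22, 6.18, 6 and 6.26 CPM, T0901317 9.59, 9.50, 9.63 and 11.1 CPM, and rosiglitazone 1.07, 1, 0.463 and 1.37 CPM. None of these 4 groups of 48 h overlapped another. NR0B2 rose with GW3965 (1.35, SE 0.159, adjusted p 1.09e-06) and T0901317 (2.04, SE 0.157, adjusted p 4.84e-09), and fell with rosiglitazone (-1.34, SE 0.195, adjusted p 2.24e-05).

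At 24 h NR0B2 stood at 1.99, 2.05, 1.97 and 3.38 CPM with GW3965 and at 5.26, 4.56, 6.47 and 6.73 CPM with T0901317. Compared with DMSO these were -0.64 (adjusted p 0.0754) and 0.65 (adjusted p 0.0855) on the log2 scale, neither called, but the GW3965 group without replicate 4 was called (-0.88, adjusted p 0.00855), as was T0901317 in a fit of only its own group and DMSO (adjusted p 0.00981). The direct comparison of the 2 agonists, which does not use DMSO, was called at 24 h (-1.29, SE 0.195, adjusted p 0.00076) and at 48 h (-0.70, SE 0.142, adjusted p 0.00241). The 48 h call was lost without T0901317 replicate 4 (adjusted p 0.0126). All 3 interactions of NR0B2 were called, 1.99 for GW3965, 1.39 for T0901317 and -1.38 for rosiglitazone (adjusted p 5.8e-07, 9.5e-05 and 0.00342), among 1.46% of all genes called with rosiglitazone, and that call was lost on leaving out any of 3 libraries.

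NR5A2 (LRH-1), a receptor that NR0B2 represses in the liver and that drives bile acid synthesis genes, had 5.72, 5.27, 6.77 and 5.02 CPM in DMSO at 24 h and 12.6, 12.6, 12.7 and 11.9 CPM at 48 h. At 48 h it had 5.96 to 7.31 CPM with GW3965, 6.95 to 9.45 CPM with T0901317 and 5.39 to 8.47 CPM with rosiglitazone, each below every DMSO library. It fell with GW3965 (-0.91, SE 0.119, adjusted p 3.92e-06), T0901317 (-0.67, SE 0.118, adjusted p 0.000125) and rosiglitazone (-0.86, SE 0.121, adjusted p 1.48e-05). At 24 h its differences from DMSO were -0.16, -0.04 and -0.07, none called. It is the member, with NR0B2, whose interaction was called with all 3 drugs (-0.75, -0.62 and -0.78), and the T0901317 call was lost without DMSO replicate 4 of 24 h or T0901317 replicate 1 of 48 h.

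**Figure D3:**
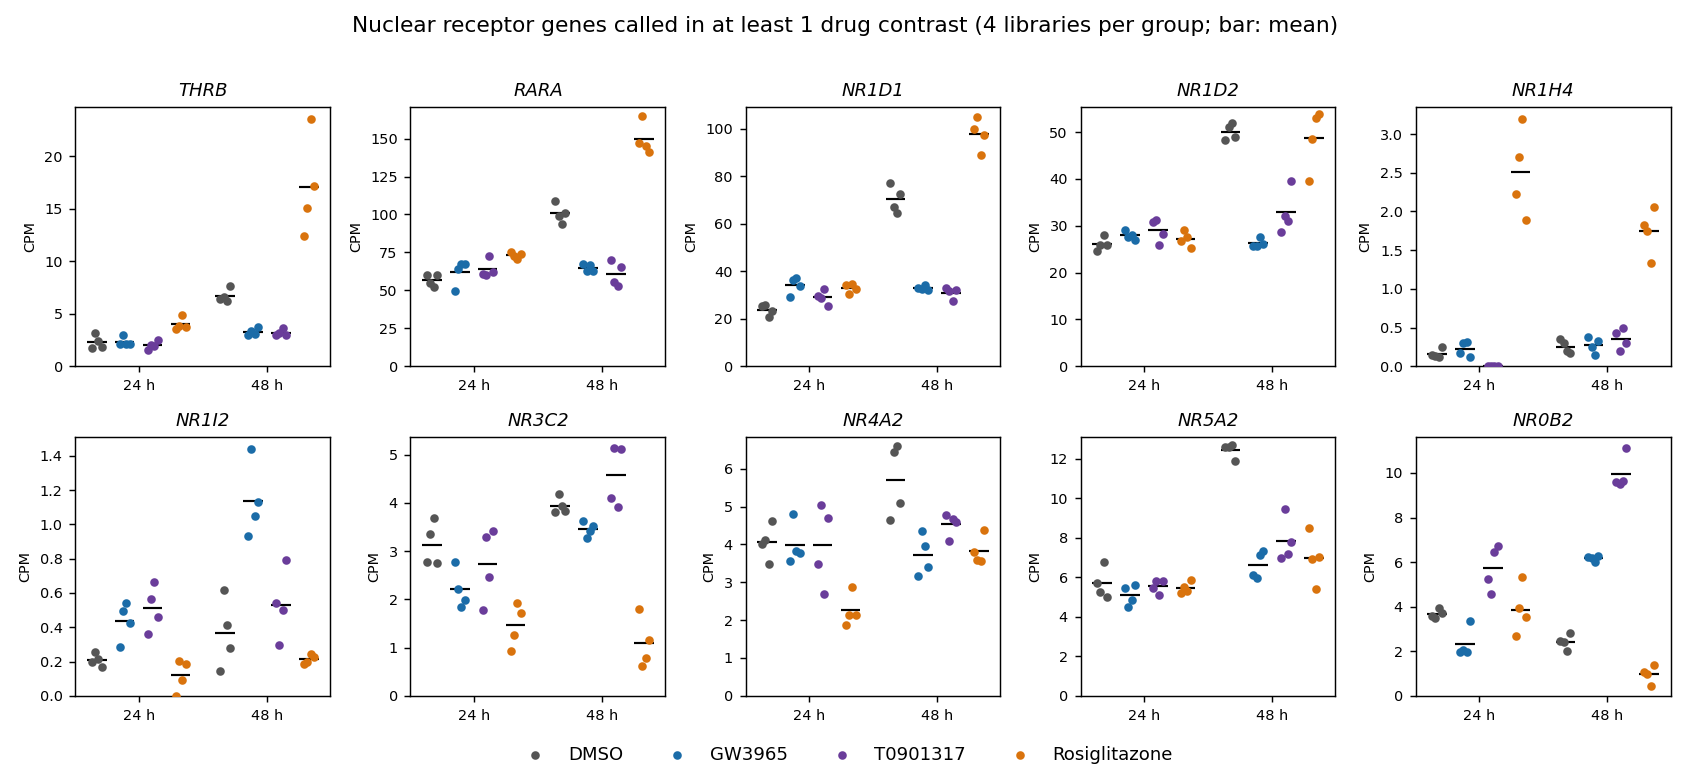
CPM (vertical, from 0) per library of the 10 genes called in at least 1 drug comparison, a panel each, with 4 points per group, a bar at the group mean, and groups of 24 h on the left and 48 h on the right. In THRB, RARA and NR1D1 the 48 h points with GW3965 and T0901317 lie below DMSO and those with rosiglitazone above, and in NR0B2 this order is turned round.

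HNF4A and HNF4G, which maintain intestinal and liver expression programs, were not called. HNF4A had group means of 88.5 to 153 CPM, and its largest difference was GW3965 at 48 h (0.32, 95% interval 0.15 to 0.50). HNF4G had 30.4 to 46.8 CPM, the largest being rosiglitazone at 48 h (-0.40, interval -0.56 to -0.23). Of 10 bile acid genes, 7 were tested at 24 h and 8 at 48 h. At 48 h GW3965 called 6 (5 higher, 1 lower), T0901317 2 and rosiglitazone 2, at 24 h 0, 1 and 2. These are 75%, 25% and 25% of those tested at 48 h against 16.1%, 14.3% and 12.2% of all genes, and 0%, 14.3% and 28.6% at 24 h against 1.34%, 0.721% and 4.94%. FGF19, the ileal hormone that FXR induces, fell with rosiglitazone at 48 h from 65.3 to 8.73 CPM (log2 -2.92). GW3965 was lower in FGF19 than T0901317 at 24 h (15.5 against 41.7 CPM) and at 48 h (29.9 against 70.2 CPM), both called. Against DMSO it rose with T0901317 at 24 h (21.9 to 41.7 CPM) and fell with GW3965 at 48 h. SLC10A2, the bile acid transporter, had 53 reads with GW3965 at 48 h against 2 in DMSO, a ratio of 21.2 with a 95% counting interval of 5.6 to 180. That DMSO group (0.0147 CPM) was its lowest, against 0.15 CPM in DMSO at 24 h and 0.129 to 0.296 CPM with drugs at 48 h. SLC10A2 is named for the largest called change of its list, and its highest mean at 48 h was with GW3965 (0.296 CPM). Whether it would pass the count filter at 48 h without those libraries was not tested. Its place among the 6 called may thus not be independent of its change.

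NR1I2 encodes PXR, which induces drug metabolism genes. It had 0.147, 0.620, 0.415 and 0.282 CPM in DMSO at 48 h and 0.930, 1.44, 1.05 and 1.13 CPM with GW3965, so those groups did not overlap. NR1I2 rose with GW3965 at 48 h (1.61, SE 0.323, adjusted p 0.000404), reaching 1.14 CPM. With T0901317 its mean was 0.532 CPM and not called (0.55, adjusted p 0.212), and the difference between the agonists was 1.06 (adjusted p 0.0179), which passed only without T0901317 replicate 4 (1.33, adjusted p 0.00982). At 24 h both agonists' libraries were above DMSO, by 1.05 and 1.28 (adjusted p 0.211 and 0.158).

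VDR, the vitamin D receptor, ranged over 27.3 to 39.4 CPM and NR1I3 (CAR) over 0.652 to 1.19 CPM. Their largest differences were 0.25 (interval 0.10 to 0.39) with GW3965 at 48 h and -0.51 (interval -1.20 to 0.18) with rosiglitazone at 48 h. Of 11 targets of these receptors, 10 or 11 were tested. GW3965, T0901317 and rosiglitazone called 1, 0 and 3 at 24 h (10%, 0% and 30%, against 1.34%, 0.721% and 4.94% of all genes) and 3, 4 and 4 at 48 h (27.3%, 36.4% and 36.4%, against 16.1%, 14.3% and 12.2%). ABCC2, an efflux pump, rose with GW3965 at 48 h (0.384 to 4.17 CPM, log2 3.44), and CYP24A1, which degrades vitamin D, rose with rosiglitazone at 24 h (1.48 to 5.83 CPM, log2 1.96).

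NR3C2, the mineralocorticoid receptor and the only steroid receptor expressed among the members, had 2.77, 3.35, 3.68 and 2.75 CPM in DMSO at 24 h and 3.82, 4.19, 3.93 and 3.84 CPM at 48 h. With rosiglitazone the libraries gave 0.934, 1.27, 1.93 and 1.71 CPM and 1.80, 0.616, 0.790 and 1.15 CPM, below every DMSO library at each time. It fell with rosiglitazone by 1.12 at 24 h (SE 0.222, adjusted p 0.00109) and by 1.86 at 48 h (SE 0.208, adjusted p 9.61e-07). LXR agonist differences were -0.51 and -0.21 at 24 h and -0.19 and 0.21 at 48 h, not called. Of 12 corticosteroid target and partner genes, 8 were tested, with 1, 2 and 0 called at 24 h (12.5%, 25% and 0%, against 1.34%, 0.721% and 4.94% of all genes) and 3, 3 and 1 at 48 h (37.5%, 37.5% and 12.5%, against 16.1%, 14.3% and 12.2%). The 1 of 8 with rosiglitazone at 48 h is near the share over all genes. KLF9 is the first of the 2 largest, and the other is MT2A, a metallothionein, which fell with rosiglitazone at 48 h from 4.91 to 1.76 CPM.

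The NR4A receptors are induced within minutes to hours by many stimuli. NR4A2 had 4, 4.12, 3.47 and 4.63 CPM in DMSO and 1.87, 2.14, 2.88 and 2.14 CPM with rosiglitazone at 24 h, and fell by 0.86 (SE 0.18, adjusted p 0.00187), a call lost without rosiglitazone replicate 1 (adjusted p 0.0102). At 48 h it had 4.64, 6.43, 6.61 and 5.08 CPM in DMSO, 3.17 to 4.36 CPM with GW3965 and 3.57 to 4.38 CPM with rosiglitazone. It fell with GW3965 (-0.62, adjusted p 0.000592) and rosiglitazone (-0.59, adjusted p 0.00144), changes of 1.54-fold and 1.51-fold that sat at the threshold and passed under it without any of 4 libraries each (log2 -0.54 to -0.58 and -0.50 to -0.57). NR4A1 was not called with drugs, its largest difference being T0901317 at 48 h (-0.56, interval -0.83 to -0.29), which was called without DMSO replicate 3 or T0901317 replicate 1 or 4 of 48 h (-0.60 to -0.69). NR4A3, which the count filter removed from the main fits, had 0, 0, 2 and 0 reads in DMSO at 24 h and 12, 9, 10 and 4 at 48 h. It had 0 to 2 reads per library with GW3965 at 48 h, and was named after its values were seen.

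The remaining orphan receptors, NR2C1, NR2C2, NR2F1, NR2F2, NR2F6, ESRRA and NR6A1, were called in no drug comparison. Their largest differences were between 0.14 and 0.57 in size on the log2 scale, and all but that of NR2C2 (0.14, interval -0.01 to 0.30) excluded 0. Each was picked as the largest of 6, and the intervals are not adjusted for that choice. By edgeR the adjusted p of this difference was 0.14 for NR2F1 and 0.0336 for NR2F2. NR2F6 had the largest, 0.57 with rosiglitazone at 24 h (interval 0.31 to 0.83), and it was called without DMSO replicate 2 or 4 or rosiglitazone replicate 2. ESRRA, a regulator of mitochondrial genes, was 0.47 higher with rosiglitazone at 48 h (interval 0.35 to 0.59). Of the 15 expressed members not called, 11 had an adjusted p under 0.01 in some drug comparison, all under 1.5-fold, and 4 (RORA, NR1I3, NR2C2 and NR2F1) had none. The 11 are counted over all 6 comparisons and have no matching share over all genes. Per comparison, members with an adjusted p under 0.01 and under 1.5-fold include genes called elsewhere. At 24 h they were 1, 1 and 6 of 26 tested with GW3965, T0901317 and rosiglitazone, and at 48 h 6, 5 and 7 of 27. Over all genes, in the same order, they were 304, 158 and 1610 of 21781 at 24 h and 3952, 3536 and 2982 of 22470 at 48 h.

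GW3965 and T0901317 were compared directly at the same dose and time, in 26 and 27 tested members. At 24 h NR1H4 and NR0B2 were called (0.358% of all genes) and at 48 h NR0B2 (2.07%). NR1H4 was in the 24 h test only through its rosiglitazone reads. Members with an adjusted p under 0.01 at 48 h but under 1.5-fold were HNF4A (0.51 higher with GW3965), ESRRA (0.49 higher) and HNF4G (-0.33), all with intervals that exclude 0. For NR1D1 and RARA the differences at 48 h were 0.08 (interval -0.07 to 0.22) and 0.09 (interval -0.08 to 0.26).

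From 24 h to 48 h in DMSO 6 of 27 members were called, 22.2% against 20.4% of all genes, which is near the share over all genes. Of these, RARA, NR5A2, THRB, NR1D1 and NR1D2 rose (1.78-fold to 2.96-fold) and NR0B2 fell 1.52-fold (adjusted p 0.00889), a call lost without any of 14 libraries. The rises in these 5 genes and their falls with LXR agonists at 48 h share the 4 DMSO libraries of 48 h, so the values are only set side by side here.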

How the data were processed

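RNA was measured in 32 libraries of HT29 cells, 4 for each of 8 groups, which were taken from the sample labels. Messenger RNA libraries (Nextera, paired end) were sequenced by the authors, and the deposited values are raw read counts per Ensembl gene in 2 tables, a table for each time. The submitters' processing notes name TopHat, Cufflinks and hg19 without saying what each was used for. Counting program, strand and annotation were not given in the sources used here. The study compared groups with DESeq.

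Here the deposited counts were fitted with edgeR 4.0.16 (glmQLFit and glmQLFTest, limma 3.58.1) in R 4.3.3 after filterByExpr and TMM scaling, with group as the only term. The 16 libraries of each time were fitted together (21781 genes tested at 24 h and 22470 at 48 h), and all 32 (23140 genes) for DMSO over time and for the interactions. P-values were adjusted by Benjamini-Hochberg over all genes tested, and a call needed an adjusted p under 0.01 and at least a 1.5-fold change. SE is the log2 fold change divided by the square root of F. CPM used TMM over all 32 libraries, and intervals are 95%. A floor is 3 reads, and floors and count intervals cover counting error only.

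The members, partner lists and markers were chosen with earlier results of these data known. All members are accounted for. Library values are given for each expressed member called in a drug comparison, and of each partner list the 2 genes with the largest called change are named. Of the list genes, CIART, SLC51A and SLC51B were matched by Ensembl ID, and PECAM1 was not found. Promoter windows (250 bases before to 50 after the start) were matched by symbol and searched for 8 motifs on both strands, the others being DR1, DR4, RevDR2, the ROR element and AP1 (TGANTCA), of which the repeats and the ROR element contain the half-site, in Python 3.11.15 with pandas 2.3.3.

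Scripts were tested on simulated counts. Alternatives were DESeq2 1.42.0, library size and RLE scaling, no count filter, fits of 2 groups, a replicate block, other thresholds, and each library left out. Replicates were not duplicates of 1 library. ChIP-seq files were not used here, since assigning their hg19 peaks to genes needs an annotation of that build.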

Additional observations from a re-analysis of the deposited data

Results flagged for a closer look

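Of 79 groups of 4 libraries examined for the 10 called genes, 5 held a library far from the other 3, and chance gives about 1 in 20. THRB with GW3965 at 24 h was at 2.95 CPM in replicate 2 against 2.10 to 2.13 CPM in the others. RARA with T0901317 at 24 h was at 72.6 CPM in replicate 3 against 60.3 to 62.1 CPM. NR5A2 in DMSO at 48 h was at 11.9 CPM in replicate 4 against 12.6 to 12.7 CPM. NR0B2 was at 3.38 CPM in GW3965 replicate 4 of 24 h against 1.97 to 2.05 CPM, and at 11.1 CPM in T0901317 replicate 4 of 48 h against 9.50 to 9.63 CPM. Each of these libraries entered the spread used by the tests above, which was estimated per gene over all groups of a fit. Their part in the results was examined by leaving each out.

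The drug effect differed between 48 h and 24 h, by the interaction test, for these members (log2 difference, adjusted p under 0.01). With GW3965 the difference was -1.05 for THRB, -0.77 for RARA, -1.61 for NR1D1, -1.03 for NR1D2, -0.75 for NR5A2 and 1.99 for NR0B2, which is 6 of 27 tested members (12.9% of all genes). With T0901317 it was -0.90 for THRB, -0.90 for RARA, -0.74 for RARG, -1.47 for NR1D1, -0.76 for NR1D2, -0.62 for NR5A2 and 1.39 for NR0B2. NR1H4 was also called, at 6.17, a fitted value that depends on the prior count because T0901317 had 0 reads at 24 h. These are 8 of 27 members (10.5% of all genes). With rosiglitazone it was -0.78 for NR5A2 and -1.38 for NR0B2, 2 of 27 members (1.46% of all genes). DMSO itself changed between the times, as given above, and what part that has in these differences was not tested.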

How the results depend on the processing

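With the thresholds kept, 39 of 50 called member values kept their direction and call under every other tool, scaling, filter, fit or left-out library that gave a value, no value reversed, and 1363 of 1426 recomputed values stayed called. The other 11 of the 50 were lost at least once. Of the 63 that did not stay called, 56 came from leaving out 1 library and 7 from another setting. Of the 1363, 1096 came from leaving out 1 library, which could belong to a group outside the comparison. They are not independent checks. DESeq2, RLE scaling and the replicate block each lost 1 call, NR4A2 with rosiglitazone at 48 h (log2 -0.58), and library size scaling lost 4, NR1D2 with T0901317 at 48 h (-0.57) and NR0B2 in DMSO over time (-0.59), and the T0901317 interactions of THRB (-0.81) and NR5A2 (-0.54). DESeq2 and no count filter called the NR4A1 interaction of T0901317. NR4A3 was not tested in the main fits because of the count filter. With edgeR and no filter it was called with GW3965 at 48 h (log2 -3.26, adjusted p 0.0015) and in DMSO over time (3.93, adjusted p 0.00224). Leaving out 1 library let NR4A3 pass the count filter in some fits. In such fits it was called in the same comparisons and for the T0901317 interaction. It was also called with T0901317 at 48 h without T0901317 replicate 3 of 48 h.

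The counts of members called moved by over 1.5 times only with other thresholds and on leaving out single libraries. In the fit of T0901317 at 24 h and DMSO alone the count stayed at 1, but NR1H4 did not pass the count filter and NR0B2 was called in its place. With no fold cutoff the members called at 24 h were 1 for GW3965, 2 for T0901317 and 10 for rosiglitazone, at 48 h 14, 11 and 13, 4 between the agonists at 48 h, and 15 for DMSO over time. Over all genes these were 595, 315 and 2687 of 21781 at 24 h and 7560, 6742 and 5720 of 22470 at 48 h. They were 1878 of 22470 between the agonists at 48 h and 8934 of 23140 for DMSO over time. With at least 2-fold the members called were 2 for rosiglitazone at 24 h, 4 and 3 for GW3965 and T0901317 at 48 h, 0 between the agonists at 48 h, 3 for DMSO over time, and 3 and 1 for the T0901317 and rosiglitazone interactions. Over all genes, in that order, these were 475 of 21781, 1297, 1213 and 104 of 22470, and 1974, 947 and 132 of 23140. With an adjusted p under 0.05 there were 2 members between the agonists at 48 h. Leaving out 1 library gave 0 to 1 at 24 h for GW3965 and for T0901317, and 1 to 2 for the rosiglitazone interaction, which lost NR0B2 without rosiglitazone replicate 3 of either time or DMSO replicate 4 of 48 h.

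The replicate numbers did not pair the libraries. Deviations of same-numbered libraries had mean correlations of -0.0033 at 24 h and 0.0292 at 48 h, and 8 of 32 libraries correlated best with their own number. With the replicate block 0, 1 and 4 members were called at 24 h and 8, 6 and 5 at 48 h with GW3965, T0901317 and rosiglitazone. The libraries whose omission lost the THRB interaction of T0901317 were DMSO 1, 3 and 4, GW3965 3 and 4, T0901317 2, 3 and 4 and rosiglitazone 2 and 4 of 24 h, and DMSO 1, 2 and 4, GW3965 1 and 3, T0901317 1, 2 and 4 and rosiglitazone 4 of 48 h. Those of NR0B2 over time were DMSO 1 to 4 and rosiglitazone 4 of 24 h, and DMSO 1 to 3, GW3965 1 to 4, T0901317 2 and rosiglitazone 2 of 48 h (adjusted p up to 0.0388). For NR4A2 at 48 h they were DMSO 2 and 3 with GW3965 1 and 4 or rosiglitazone 2 and 3. A level cutoff of 0.5 or 2 CPM gave 25 or 22 expressed members. The ChIP-seq alternatives were not run.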
